A study of Mus musculus with 9 samples.

Results

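Transverse aortic constriction (TAC) narrows the aortic arch and overloads the left ventricle, and in mice a long exposure ends in heart failure with wasting of skeletal muscle (cardiac cachexia). The genes described here are the secreted-protein genes of wasting quadriceps muscle: all 587 genes of the deposited TAC against sham quadriceps table, each of which carries an extracellular annotation. They were compared between 3 TAC and 3 sham libraries, and 586 of them had enough counts to be tested. For scale, the series' table of sham quadriceps and sham heart holds 35745 transcripts.

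All mice were wild-type C57Bl6 (C57Bl/6JCrl in the study's methods, which also give them as male) and 8 weeks old at surgery by the labels. TAC mice had the aorta tied around a 27 gauge needle, sham mice had the operation without constriction, and the whole quadriceps was taken 12 weeks later. The libraries are named sham 1, sham 2, sham 3, TAC 1, TAC 2 and TAC 4. The labels number the TAC quadriceps samples from 1 to 3, so TAC 4 is known by its group alone. The tissue label held for the sham libraries, where Myh4, the myosin heavy chain of the fastest muscle fibers, had 559634, 726121 and 708200 counts and the atrial peptide gene Nppa had 18, 10 and 3. No myosin gene is in the TAC table, but Ckm, the creatine kinase of muscle fibers, was its most abundant gene in all 6 libraries, with 37.9% to 46.6% of the listed counts.

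Over the 587 genes, sham 1, sham 2 and sham 3 held 917422, 1006148 and 689630 counts, and TAC 1, TAC 2 and TAC 4 held 1166978, 1297786 and 1326011. No sham library was thus as deep as any TAC library, so depth and the operation cannot be told apart. Those counts were 2.81%, 3.05% and 2.95% of all counts in the sham libraries, against 2.40% in TAC 1 and 2.65% in TAC 2. The libraries are of bulk tissue, so fewer cells of a type and less RNA per cell cannot be told apart. Muscle fibers make up most of the tissue, but the fibroblasts between them secrete the interstitial matrix, which is built from fibrillar collagens, proteoglycans and glycoproteins. Fibers and capillaries lie on a basement membrane of laminins, type IV collagen and nidogen. Fibers also release hormones and growth factors, called myokines when they act on other cells.

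Counts below are normalized by TMM over the listed genes, and a gene is said to have risen or fallen when edgeR's quasi-likelihood test gave it an adjusted p under 0.05. In TAC quadriceps 70 genes fell, which is 11.9% of those tested, and 104 rose, which is 17.7%. The scaling set this balance. When the libraries were scaled by their total counts instead, 180 genes fell (30.7%) and 20 rose (3.41%). Those shares are the background for all counts given below with library totals. The median log2 fold change of all tested genes moved from 0.03 to -0.63. This scaling covered 5 libraries, because no total was recovered for TAC 4, whose deposited length- and depth-scaled values (RPKM) were not used. All 70 falls were also called with library totals (11.9%), and so were 20 of the 104 rises (3.41%). That fit changes the scaling and also lacks TAC 4. With TMM and no TAC 4, 63 of the 104 rises and 59 of the 70 falls were called, and with sums of the listed genes and no TMM in all 6 libraries 27 and 70. Leaving out sham 1, sham 2 or sham 3 left 35, 48 or 38 falls and 25, 35 or 34 rises with TMM, and leaving out TAC 1, TAC 2 or TAC 4 left 63, 102 or 71 falls and 62, 113 or 65 rises. Of the 104 genes that rose, 98 still had a positive log2 fold change with library totals. The 3 TAC values lay wholly below the 3 sham values in 124 genes (21.2%) and wholly above them in 153 (26.1%).

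Falling and rising genes differed in level. Per kilobase of transcript, the median level in sham was 58.7 normalized counts for the genes that fell, 105.1 for those that rose and 69.5 for the rest. Among the 60 genes with the highest level per length over all 6 libraries, 20 rose, 0 fell and 40 passed in neither direction. Over all tested genes 17.7% rose and 11.9% fell. That level includes the TAC libraries, so a rise itself lifts a gene toward this set and a fall lowers it. With library totals 10 of the 60 fell, against 30.7% of all tested genes. The falls were large where they occurred: 63 of 70 were at least 2-fold, with a median log2 fold change of -1.41. Among the rises, 64 of 104 were at least 2-fold, and the median was 1.14. The genes were read in 23 lists by function, some of which share members. The share that fell was above the 11.9% of all tested genes in 12 lists: the 6 lists of collagens and interstitial matrix (23.1% to 60%), chemokines (30%), complement (26.7%), protease inhibitors (25.0%), muscle-linked hormones (21.7%), Wnt (16.7%) and redox enzymes (13.3%). The share that rose was above 17.7% in 8 lists, from 18.2% in plasma carriers to 27.8% in basement membrane, and was at or under it in the cytokine, IGF, TGF-beta, Wnt and cytosolic enzyme lists, among others. Of the 53 tested genes that the authors' table lists under the exosome annotation, 15 rose and 3 fell with TMM, where 17.7% and 11.9% of all tested genes did. This set was not counted with library totals.

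**Figure D1:**
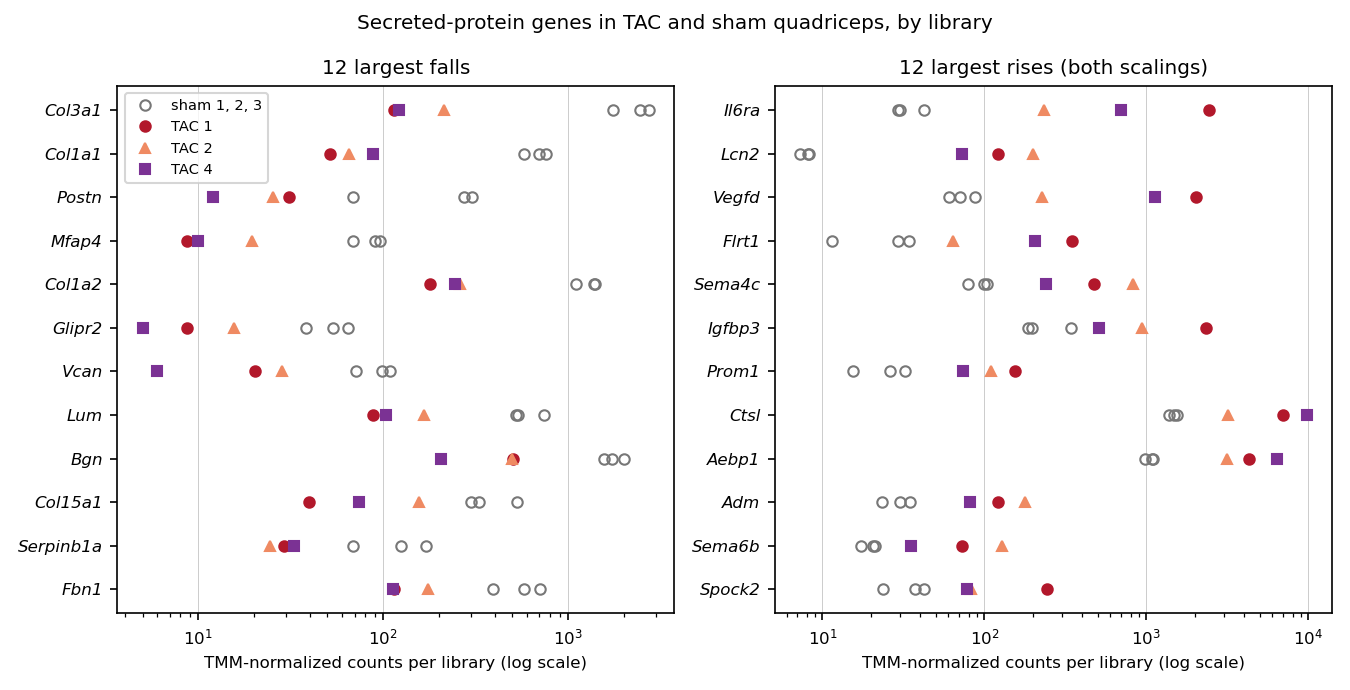
TMM-normalized counts per library on a log scale for the 12 genes with the largest falls (left) and the 12 with the largest rises called with both scalings (right), among genes with a mean of at least 30 normalized counts and no overlap between the groups. Grey open circles are the 3 sham libraries, and filled symbols are TAC 1, TAC 2 and TAC 4; in each gene shown all 3 TAC values lie on one side of all 3 sham values, and the TAC libraries lie closest together in Serpinb1a and Col1a2 and farthest apart in Il6ra and Vegfd.

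The fibrillar collagens, the rope-like proteins that give muscle connective tissue its tensile strength, had the lowest median log2 fold change of the 23 lists. Col3a1, which encodes type III collagen, had 2461, 1740.2 and 2732 normalized counts in sham 1, sham 2 and sham 3 and 114, 213 and 121 in TAC 1, TAC 2 and TAC 4 (the order kept below). Its log2 fold change was -3.95 ± 0.33 (SE, adjusted p = 0.000557). No TAC library came near the sham range. Col1a1 and Col1a2 encode both chains of type I collagen, the main collagen of tendon and muscle sheaths. Col1a1 had 697, 577 and 762 in sham and 51.3, 65.6 and 88.1 in TAC, and Col1a2 had 1403, 1099 and 1383 and 179, 259 and 243. Their log2 fold changes were -3.31 ± 0.29 and -2.51 ± 0.24 (SE, adjusted p = 0.000557 and 0.000812), again with no overlap. Col11a1, Col5a2 and Col5a1, minor fibrillar collagens that are built into the same fibrils, fell by 1.84, 1.76 and 1.01 on the log2 scale. Of the 10 fibrillar collagen genes tested 6 fell (60%, against 11.9% over all tested genes) and 0 rose, and all 10 had a negative log2 fold change with TMM. All 10 were also negative with library totals, but so were most tested genes. Of the 412 genes not called with TMM, 37 were positive there. The list's median was -1.39, against 0.03 over all tested genes (-2.23 against -0.63 with library totals). Col11a2, Col24a1, Col27a1 and Col5a3 did not pass the test.

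Some falling genes lie side by side. Of 108 pairs of tested genes at most 200000 bases apart, 5 fell together, 5 rose together and 4 had calls in opposite directions. A fall lay beside a gene that did not pass in 18 pairs and a rise in 25, and in 51 neither gene passed. These counts were not compared with those expected from the shares called. On GRCm38 Col3a1 occupies chr1:45311538-45349706 and its neighbour Col5a2 chr1:45374321-45503282, a gap of 24615 bases. Col6a2 and Col6a1 on chromosome 10, 85162 bases apart, both fell, as did the complement genes C1qc and C1qa on chromosome 4, 2852 bases apart, though C1qb, 3617 bases from C1qc, did not pass. Lum fell beside Dcn, which did not pass, and Col16a1 fell beside Tinagl1, which rose. The calls of C1qa, Col16a1 and Tinagl1 were lost in several of the fits with a library left out that are given below. The proximal promoters of Col1a2 (chr6:4504814-4541544) and Col3a1 are shown because these genes fell in parallel, with the 150 bases before the RefSeq start in GRCm38.p6 and the motif that a search found in capitals. The RefSeq start of Col1a2 lies 804 bases after the start of the GENCODE gene, so its window is inside the gene span given here, whereas for Col3a1 both starts are the same base. Col1a1 has no entry in the promoter table. The search covered 250 bases before to 50 after each start on both strands for CCAAT, the letters bound by nuclear factor Y, and TATAAA, a form of the TATA box.
Col1a2, plus strand, chr6:4505468-4505617: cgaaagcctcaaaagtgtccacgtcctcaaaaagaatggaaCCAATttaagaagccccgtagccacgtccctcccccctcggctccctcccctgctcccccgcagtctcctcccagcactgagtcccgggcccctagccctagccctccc
Col3a1, plus strand, chr1:45311388-45311537: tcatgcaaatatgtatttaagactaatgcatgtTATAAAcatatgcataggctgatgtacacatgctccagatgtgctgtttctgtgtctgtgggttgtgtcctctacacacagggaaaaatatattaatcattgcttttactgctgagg
The Col1a2 window held CCAAT, 109 bases before the start, and no TATAAA, and the Col3a1 window held TATAAA, 117 bases before the start, with CCAAT absent from it. Over all 32851 promoters given, 37.4% held CCAAT and 13.6% held TATAAA, and over the 545 promoters of all tested genes 33.6% and 11.9% did. For the 50 of 70 falling genes with an entry the shares were 28.6% and 17.9% of 56 promoters, and for the 84 of 104 rising genes 35.7% and 11.2% of 98.

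The other collagens divided by type. The chains of type VI collagen, a beaded filament around muscle fibers, fell together: Col6a2 by 1.70, Col6a3 by 1.45 and Col6a1 by 1.45 on the log2 scale. Col15a1, a collagen at the outer face of the basement membrane, had 328, 297 and 532 in sham and 39.7, 157 and 74.1 in TAC and fell by 2.09. Col14a1, which decorates collagen fibrils, had 144, 111 and 122 in sham and 41.6, 38.2 and 42.1 in TAC, where the 3 libraries nearly coincided, and fell by 1.63 ± 0.23 (SE, adjusted p = 0.00378). Of 16 such genes tested 8 fell and 2 rose (50% and 12.5%, against 11.9% and 17.7% over all tested genes). The risers were Col19a1 and Col7a1 (median of the list -0.93, or -1.53 with library totals, which called 10 lower). Neither riser was called with library totals. Col4a2, a chain of the basement membrane network and the most abundant of these genes per length, was at 914, 949 and 939 in sham and 802, 1036 and 539.8 in TAC and did not pass.

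The proteins that coat, space and cross-link collagen fibrils followed in part. The small leucine-rich proteoglycans bind fibrils and set their diameter, and 3 of 8 fell (37.5%, against 11.9% over all tested genes): Lum (lumican), Bgn (biglycan) and Chad (chondroadherin). Bgn had 1720.0, 1560.3 and 1994 normalized counts in sham and 502, 499 and 205 in TAC, with no overlap. Its log2 fold change was -2.13 ± 0.35 (SE, adjusted p = 0.00664), and that of Lum was -2.34 ± 0.31 (adjusted p = 0.00288). Dcn (decorin), the most abundant member of the list per length, did not pass, at 7443, 6005 and 5974 in sham and 7898, 5382 and 8623 in TAC, with overlapping groups and a log2 fold change of 0.17 (adjusted p = 0.601). Of 13 collagen-processing genes 3 fell (23.1%, against the same 11.9%): Loxl2, a lysyl oxidase that cross-links collagen, Ctsk, a collagen-cleaving cathepsin, and Pcolce, which speeds procollagen trimming. The most abundant gene of that list, Sparc, had 4071, 3755 and 4525 in sham and 3339, 2746 and 3773 in TAC and did not pass. The list medians were -0.63 for the proteoglycans (-1.38 with library totals, which called 6 lower) and -0.56 for processing (-1.16, with 9 lower).

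Among 14 genes of elastic fibers and their fibrillin scaffold 5 fell (35.7%, against 11.9% over all tested genes) and 0 rose. The median was -0.35, or -1.21 with library totals, which called 10 lower. Mfap4, a microfibril-associated protein, had 95.9, 68.7 and 90.7 in sham and 8.72, 19.6 and 10.01 in TAC, a fall of 2.72 ± 0.37 on the log2 scale (SE, adjusted p = 0.00288). Fbn1, which encodes fibrillin, the backbone of the microfibril, had 575, 394 and 703 and 114, 175 and 113 and fell by 2.05. Emilin2, Efemp1 and Mfap5 were the others that fell, while Fbln2, the most abundant per length, was at 650.3, 600.3 and 714 in sham and 608, 488 and 423 in TAC and did not pass. Among 27 matricellular and adhesive glycoproteins 8 fell and 3 rose (29.6% and 11.1%, against 11.9% and 17.7% over all tested genes). The median was -0.61, or -1.25 with library totals, which called 14 lower and 2 higher. Postn (periostin), a fibroblast product of remodelling tissue, had 304, 68.7 and 275 in sham and 31.00, 25.4 and 12.02 in TAC and fell by 3.23 ± 0.60 (SE, adjusted p = 0.00821). One sham library, sham 2, lay well under the other sham libraries for Postn but still above every TAC library. Vcan (versican), Fn1 (fibronectin), Tnc (tenascin C), Thbs4 and Thbs3 (thrombospondins), Olfml2b and Srpx2 also fell. Thbs4, a protein of tendon and the muscle attachment, had 2337, 2572 and 2604 in sham and 1025, 997 and 864 in TAC, with a log2 fold change of -1.38 ± 0.18 (SE, adjusted p = 0.00288).

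Aebp1 ran against its list. It encodes a secreted collagen-binding protein also called ACLP, and it had 1089, 1099 and 982 normalized counts in sham and 4319, 3167 and 6420.3 in TAC. The rise was 2.13 ± 0.28 on the log2 scale (SE, adjusted p = 0.00288) and 1.18 with library totals (adjusted p = 0.0108), and TAC 4 was the highest library. Spock2, a testican proteoglycan, rose with both scalings as well, with TAC 1 well above the other TAC libraries (245, 83.2 and 78.1 against 23.6, 42.4 and 37.1 in sham). Mfge8, an adhesive protein that marks dying cells, rose with TMM but not with library totals. The most abundant gene of the list, Sparcl1, did not pass in either direction.

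The balance of the basement membrane list depended on the scaling, as that of all tested genes did. Of 18 genes 5 rose and 2 fell with TMM (27.8% and 11.1%, against 17.7% and 11.9% over all tested genes). With library totals 0 rose and 6 fell, where 3.41% and 30.7% of all tested genes did. The medians of the list were -0.21 with TMM and -0.74 with library totals. The risers were the laminin chains Lama5, Lamc1 and Lamb2, Dag1, which encodes the laminin receptor dystroglycan of the fiber membrane, and Agrn, which encodes agrin, the organizer of the neuromuscular synapse. Lama5 had 203, 244 and 247 in sham and 577, 529 and 485 in TAC, and Dag1, the most abundant of the list per length, 2463, 3046 and 2736 and 7072, 4222 and 5068. Their log2 fold changes were 1.20 ± 0.22 and 0.99 ± 0.24 (SE, adjusted p = 0.00813 and 0.0189). None of the 5 was called with library totals, where the changes of these genes were 0.63 and 0.41. Col15a1 and Nid1 (nidogen) fell. Metalloproteinases and their inhibitors, which cut matrix and hold that cutting in check, had 2 rises (Adamtsl4 and Adam9) and 0 falls among 14 with TMM (14.3% rose, against 17.7% over all tested genes). With library totals they had 0 rises and 4 falls, where 30.7% of all tested genes fell. Timp3, the most abundant of them, was at 3838, 4122 and 3528 in sham and 7016, 6726 and 4319 in TAC without passing.

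Several matrix calls did not pass when 1 library was left out, some of them whichever sham library it was. In 6 fits that each left out 1 library, 30 of the 70 falls were called every time, Col3a1, Col1a1, Col1a2, Postn, Mfap4, Vcan, Lum, Bgn, Fbn1, Col6a2 and Col14a1 among them. Leaving out sham 1 ended the calls of Loxl2, Col5a1, Emilin2, Pcolce and Ctsk (adjusted p = 0.0503, 0.0565, 0.0581, 0.0836 and 0.0961). Leaving out sham 3 ended those of Col15a1, Emilin2, Chad, Col5a1, Ctsk and Pcolce (adjusted p = 0.0522, 0.0611, 0.0688, 0.0719, 0.0848 and 0.106). Without sham 2 the calls of Ctsk and Pcolce were lost (0.0635 and 0.0894), without TAC 1 that of Pcolce (0.0538), without TAC 2 that of Pcolce (0.0580) and without TAC 4 that of Ctsk (0.0543). Among the rises of these lists, Spock2 was not called without sham 1, sham 2 or sham 3 (adjusted p = 0.0969, 0.0567 and 0.0573), nor were Dag1 (0.0901, 0.0542 and 0.0701), Adamtsl4 (0.0842, 0.0758 and 0.0848) and Adam9 (0.133, 0.113 and 0.0659). Without TAC 1 the calls of Dag1, Adamtsl4 and Adam9 also went (0.0509, 0.0514 and 0.0994), and without TAC 2 that of Adam9 (0.0527). The rises of Lamc1, Lamb2, Agrn and Mfge8 were also lost without each sham library and without TAC 4 (adjusted p = 0.0785 to 0.149, 0.0588 to 0.149, 0.0627 to 0.108 and 0.0601 to 0.124), those of Lamc1 and Mfge8 without TAC 1 and that of Lamb2 without TAC 2, so that of the 5 basement membrane rises Lama5 alone held in all 6 fits. Nid1 was called only without TAC 1 (0.0509 to 0.119 elsewhere). Tnc, Srpx2, Thbs3, Olfml2b, Efemp1 and Mfap5 were lost without each sham library, Tnc and Srpx2 without TAC 4 and Thbs3 and Olfml2b without TAC 1 (0.0524 to 0.107, 0.0542 to 0.119, 0.0539 to 0.115, 0.0539 to 0.0969, 0.0574 to 0.0836 and 0.0542 to 0.107). Of the 8 falls among the other collagens 4 held in all 6 fits, while Col12a1 and Col16a1 were lost without each sham library, Col16a1 also without TAC 1, and Col8a1 without sham 1, sham 3, TAC 1 or TAC 4 (0.0518 to 0.0719, 0.0836 to 0.120 and 0.0538 to 0.138). Tinagl1, a rise, was lost without each sham library (0.0697 to 0.123). Col19a1 was lost without each sham library and Col7a1 without sham 1, sham 2 or TAC 4 (0.0610 to 0.0836 and 0.0568 to 0.0648). All of these kept their direction in each of the 6 fits. The size of the change moved by over 1.5-fold for Col15a1 without TAC 2 (log2 fold change -2.76) and for Spock2 without TAC 1 (1.17). Of the 104 rises 24 were called in all 6 fits, and of the 20 called with both scalings 14 were.

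**Figure D2:**
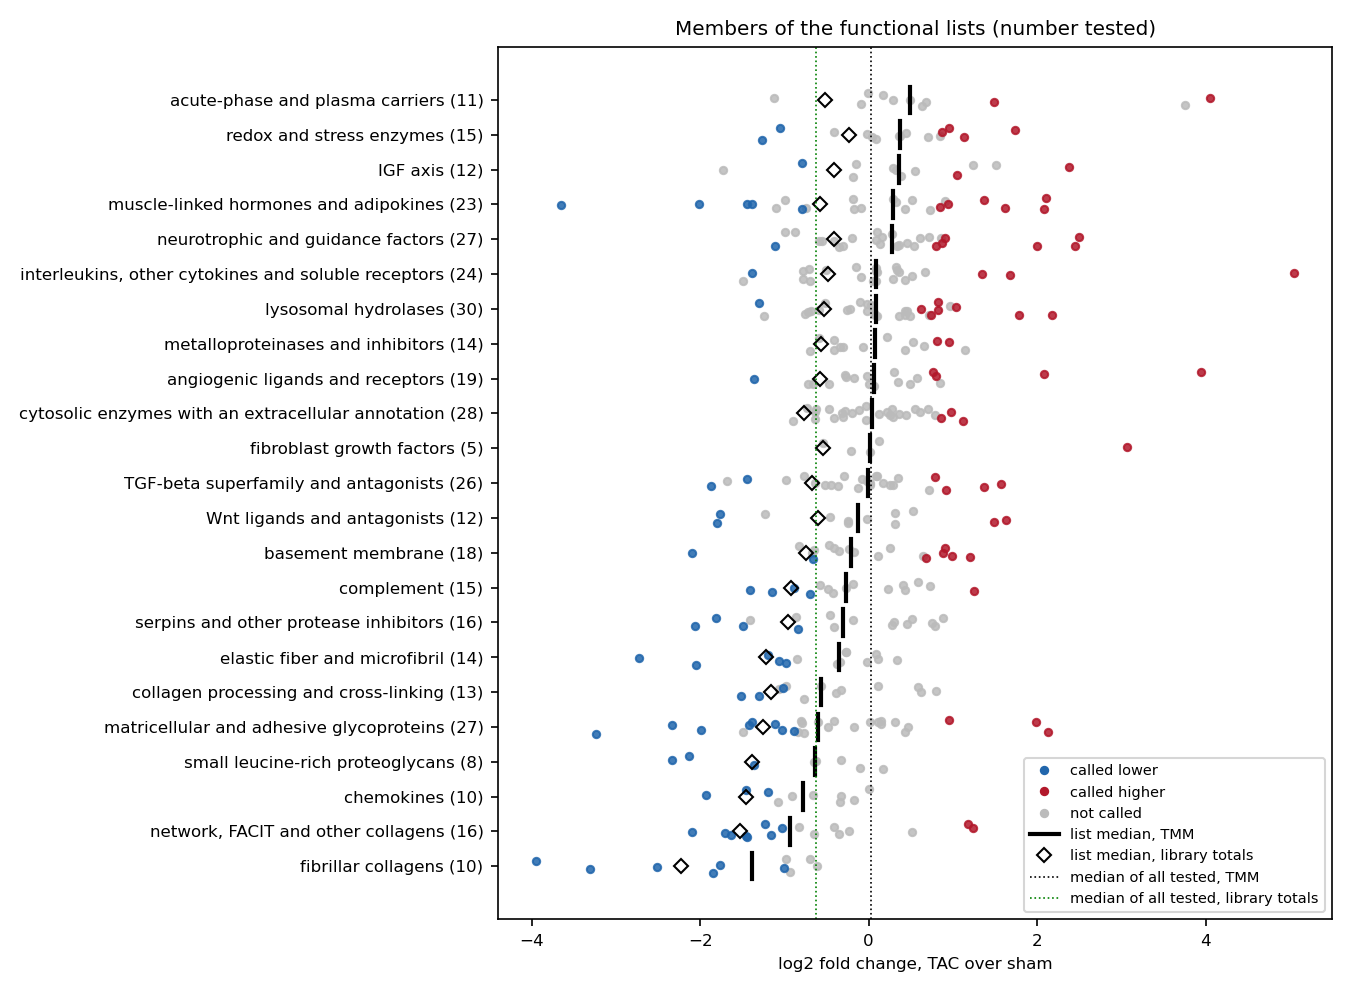
Log2 fold change (TAC over sham, TMM) of each tested member of the 23 functional lists, with genes that fell in blue, genes that rose in red and the rest in grey; black bars are list medians with TMM, open diamonds list medians with library totals, and dotted lines the medians of all tested genes. Fibrillar collagens lie lowest (median -1.39), and acute-phase and plasma carriers highest (median 0.50 with TMM, -0.52 with library totals).

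Marker genes of other cells in the tissue were called in some lists and not in others. Of the 11 fibroblast marker genes listed, 7 fell (63.6%, against 11.9% over all tested genes) and 0 rose. The 7 were Col3a1, Col1a1, Col1a2, Lum, Pi16, Dpt and Mfap5, and the list shares members with the matrix lists. The summed counts of all 11 were 19697, 16344 and 17657 in sham and 14611, 10940 and 18972 in TAC 1, TAC 2 and TAC 4. The sum overlapped between the groups, and Dcn, its most abundant gene, did not pass. Of 5 tendon markers 2 fell (Thbs4 and Chad, 40%), and the sums were 3855, 4289 and 4415 in sham and 2540, 1806 and 1867 in TAC. Macrophage markers had 5 falls (50%) and 0 rises among 10 (Pf4, C1qc, Lyz2, Ccl9 and C1qa). The sums of that list were 1614, 1276 and 1672 in sham and 883, 708 and 671 in TAC, and Lyz2 was its most abundant gene. The reads of Lyz2 may be shared with its paralog Lyz1. Vcam1, the 1 gene of the satellite cell list in the table, also fell. Endothelial markers went the other way with TMM: 4 of 6 rose (66.7%, against 17.7% over all tested genes). These were Gpihbp1, Vwf, Flt1 and Pecam1, none of them called with library totals. The sums of the list were 2379, 2580 and 2684 in sham and 4028, 4110 and 3759 in TAC. None of the 4 rises was called without sham 1, sham 2 or sham 3, nor Gpihbp1 and Vwf without TAC 4, Flt1 without TAC 1 or TAC 2, Pecam1 without TAC 1 or TAC 4 and Vwf without TAC 2 (adjusted p = 0.0506 to 0.115, 0.0573 to 0.133, 0.0950 to 0.149 and 0.0847 to 0.133 for Gpihbp1, Vwf, Flt1 and Pecam1). Of the falls in these lists, Vcam1 was lost without sham 1 or sham 3 (0.0836 to 0.0915), and 1 of the 5 macrophage falls, C1qc, was called in all 6 such fits. None of these markers was at 0 in any library. The part of fibroblast, tendon, macrophage or endothelial content in the changes of the matrix and immune genes was not tested.

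**Figure D3:**
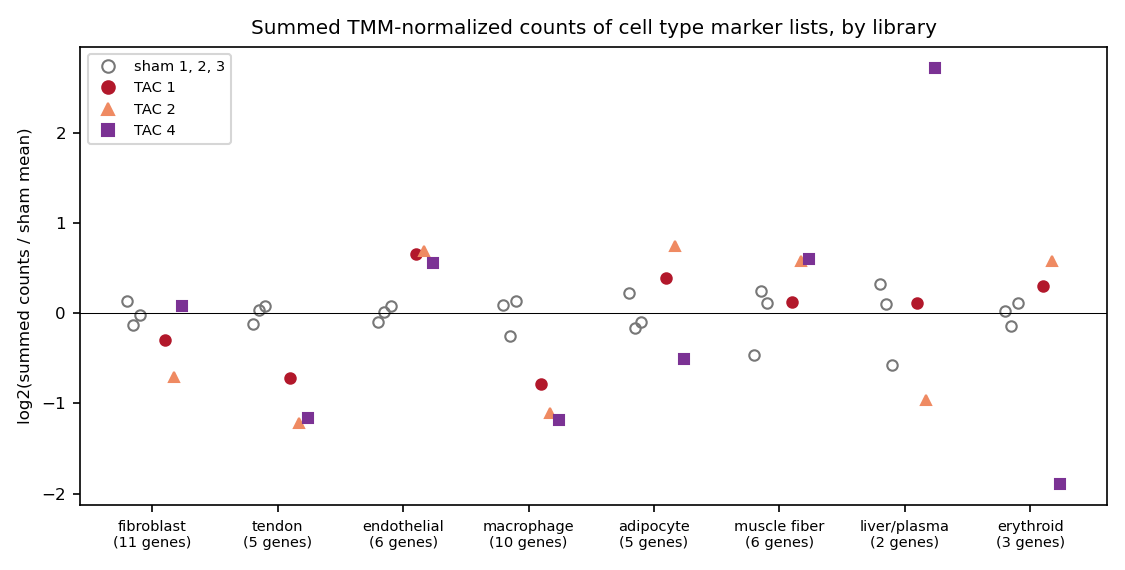
Summed TMM-normalized counts of each cell type marker list with at least 2 genes in the table, as log2 of the ratio to the sham mean, for each library. TAC libraries lie below the sham libraries for tendon and macrophage lists and above them for the endothelial list, and TAC 4 stands apart in the liver and plasma list, through Alb, and in the erythroid list.

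Among the genes of cytokine signalling 3 receptors rose, of 24 genes tested (12.5%, under the 17.7% over all genes). Il6ra, which encodes the ligand-binding receptor of interleukin 6 and is also shed as a soluble form, had the largest rise of all with 30.1, 29.3 and 42.6 normalized counts in sham and 2435, 232 and 694 in TAC. All 3 TAC libraries were above the sham range, but they were far apart, TAC 1 the highest and TAC 2 the lowest. The log2 fold change was 5.05 ± 0.83 (SE, adjusted p = 0.00664), and 4.67 with library totals (adjusted p = 0.00919). Without TAC 1 it was 3.73. Il6st (gp130), the signalling partner of that receptor and the most abundant gene of the cytokine list per length, had 2587, 2922 and 3055 in sham and 7452, 5757 and 8497 in TAC and rose by 1.34 ± 0.21 (adjusted p = 0.00608), but with library totals by 0.58 (adjusted p = 0.0569). Il4ra, the receptor for interleukins 4 and 13, had 66.7, 66.7 and 57.7 in sham and 246, 223 and 146 in TAC and rose with both scalings. Il15, a cytokine that muscle itself makes, had 327, 183 and 225 in sham and 52.3, 158 and 71.1 in TAC and fell by 1.39, but it was called in 1 of the 6 fits with a library left out (adjusted p = 0.129, 0.0677 and 0.0814 without sham 1, 2 and 3, 0.0669 without TAC 1 and 0.0796 without TAC 4), that without TAC 2, where its log2 fold change was -1.99. Il15 was the 1 fall among the 24 genes (median 0.09, or -0.48 with library totals, which called 6 lower), and all 3 rises were called in each of the 6 fits.

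Lcn2 (lipocalin 2), an iron-siderophore carrier made by neutrophils and stressed epithelia, had 7.32, 8.08 and 8.25 in sham and 121, 201 and 73.1 in TAC. The sham libraries held only a few counts each and every TAC library was well above them, with a rise of 4.05 ± 0.45 on the log2 scale (SE, adjusted p = 0.00145). Lcn2 is the 1 gene of the neutrophil list in the table, so other neutrophil markers were not analysed here. Of 11 acute-phase and plasma carrier genes 2 rose with TMM (18.2%, near the 17.7% over all tested genes) and 0 fell. With both scalings 1 rose, and with library totals 1 fell (medians 0.50 and -0.52). The riser beside Lcn2 was Apod (apolipoprotein D), with 987, 1204 and 953 in sham and 4664, 1803 and 2326 in TAC. Apod was not called with library totals (0.99, adjusted p = 0.0712) or without sham 1, sham 2 or sham 3 (0.0836, 0.0518 and 0.0597). Apoe, the most abundant of the list per length, was at 1062, 1036 and 891 and 1457, 923 and 1834 and did not pass.

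Of 10 chemokine genes 3 fell (30%, against 11.9% over all tested genes) and 0 rose. A negative log2 fold change was found in 9 of the 10 (median -0.78, or -1.45 with library totals, which called 8 lower). Cxcl9, an interferon-induced attractant of T cells, had 64.2, 44.5 and 37.1 in sham and 8.72, 16.6 and 13.02 in TAC. Pf4 and Ccl9, which macrophages also express, fell by 1.45 and 1.19, while Ccl11 (eotaxin), the most abundant per length, was at 506, 354 and 362 and 334, 394 and 356 and did not pass. In the complement cascade 4 of 15 genes fell (26.7%, against 11.9% over all tested genes) and 1 rose (6.67%, against 17.7%). The falls were C1qc, Clu, C1qa and C1s1, and the rise was Masp2. The list's median was -0.27 (-0.92 with library totals, which called 7 lower). C1qc, a chain of the C1q recognition protein, had 95.1, 102 and 97.6 in sham and 37.8, 42.1 and 31.05 in TAC, and the groups were each tight. Clu (clusterin), a complement inhibitor and extracellular chaperone, had 1242, 1957 and 2069 in sham and 554, 819 and 1013 in TAC. Cfd (adipsin), the most abundant complement gene per length and a product of adipocytes, had 1021, 516 and 129 in sham and 1125, 225 and 1425 in TAC and spread widely within each group. Leaving out sham 1 ended the calls of Cxcl9 (adjusted p = 0.0503), Pf4 (0.0581) and Ccl9 (0.0821). Without sham 2 Ccl9 (0.0563), Masp2 (0.0567) and Clu (0.0790) were not called, and without sham 3 neither were Pf4 (0.0597), Masp2 (0.0597) and Clu (0.0801). C1qa and C1s1 were called only without TAC 2 (adjusted p elsewhere 0.0627 to 0.176 and 0.0528 to 0.132), so that C1qc was the 1 complement fall called in all 6 fits.

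Of 19 angiogenic genes 4 rose with TMM (21.1%, near the 17.7% over all tested genes) and 2 of those with both scalings, Vegfd and Adm. Vegfd (also Figf), a ligand of the lymphatic and vascular VEGF receptors, had 87.8, 70.7 and 60.5 in sham and 2025, 226 and 1134 in TAC. Its rise was 3.94 ± 0.70 on the log2 scale (SE, adjusted p = 0.00790), with all 3 TAC libraries above the sham range and TAC 2 the lowest of them, and without TAC 1 it was 3.16. Adm (adrenomedullin), a vasodilator peptide, had 34.95, 30.3 and 23.4 in sham and 122, 178 and 81.1 in TAC and rose by 2.09 ± 0.35 (adjusted p = 0.00664), with TAC 2 the highest library. Vegfa and Vegfb, other VEGF ligands, did not pass, at 4841, 4634 and 4391 in sham and 4250.2, 5055 and 4358 in TAC for Vegfa. The other rises of the list were Sema3c and Flt1, and 1 gene fell (Angptl2, by 1.36), with a median of 0.07 (-0.58 with library totals, which called 4 lower). Hdgf, the most abundant per length, had 4189, 6330.1 and 5799 in sham and 7966, 7904 and 8364 in TAC, a difference that missed the test (adjusted p = 0.0740).

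Among 27 neurotrophic and guidance genes 6 rose and 1 fell with TMM (22.2% rose, against 17.7% over all tested genes), and 3 rose and 5 fell with library totals (medians 0.27 and -0.42). Gdnf, which keeps motor neurons alive and is released by muscle, had 3.25, 12.1 and 12.4 in sham and 80.4, 48.9 and 22.03 in TAC. Sema4c and Sema6b, membrane semaphorins, had 99.2, 103 and 79.7 and 21.1, 17.2 and 20.6 in sham and 478, 827 and 239 and 72.6, 129 and 35.1 in TAC. These 3 rose with both scalings, by 2.50, 2.45 and 2.001 on the log2 scale. Agrn, Sema7a and Sema3c rose with TMM only, and Lgi2 fell. Cdnf, the most abundant of the list per length, did not pass, at 1681, 1724 and 1632 and 1477, 1962 and 2084. Flrt1, a fibroblast growth factor receptor partner and guidance protein, had 11.4, 29.3 and 34.4 in sham and 349, 63.6 and 205 in TAC. It was the 1 riser among 5 genes of the FGF list (20%, near the 17.7% over all tested genes). The median of that list was 0.02, or -0.54 with library totals, and Fgf1, its most abundant gene, did not pass. Flrt1 overlaps Macrod1 on the opposite strand, and whether the counting used strand is not given in the sources used here. Sema7a and Sema3c were lost without each sham library or TAC 1 (adjusted p = 0.0740 to 0.139 and 0.0573 to 0.0878), and Lgi2 without sham 1 or sham 3 (0.0659 to 0.0791). Without TAC 1 the log2 fold change of Flrt1 was 2.42. Gdnf was not called without sham 1, sham 2 or TAC 1 (adjusted p = 0.0836, 0.0565 and 0.0599), Sema6b without sham 1, sham 2 or sham 3 (0.0713, 0.0646 and 0.0518) and Flrt1 without sham 1 (0.0589).

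In the insulin-like growth factor axis, the main anabolic signal of muscle, 1 of 12 genes fell and 2 rose (8.33% and 16.7%, under the shares over all genes). Igf1 had 750.3, 551 and 675 in sham and 428, 426 and 289 in TAC, a fall of 0.79 ± 0.25 on the log2 scale (SE, adjusted p = 0.0434). Igfbp3, the carrier that holds most circulating IGF, had 198, 342 and 187 in sham and 2319.8, 940.4 and 509.7 in TAC and rose by 2.37 ± 0.54 (adjusted p = 0.0166), or 2.13 with library totals (adjusted p = 0.0108). Ide, an insulin-degrading protease, rose with TMM only. Igfbp5, the most abundant member per length, had 11295, 24202 and 13806 in sham and 1362, 9845 and 3668 in TAC. Its groups did not overlap, but TAC 2 lay close to the lowest sham library and far from the other TAC libraries, and the adjusted p was 0.0717; without TAC 2 the log2 fold change was -2.71 and the gene was called (adjusted p = 0.00972). The list's median was 0.36, or -0.41 with library totals, which called 1 gene higher and 2 lower. The calls were fragile: Igf1 was lost without sham 1, 2 or 3 (adjusted p = 0.136, 0.0741 and 0.139) or TAC 4 (0.0641), Igfbp3 without sham 1 or 3 (0.0812 and 0.0519; its log2 fold change without TAC 1 was 1.51) and Ide without sham 1, sham 2 or TAC 1 (0.0836, 0.0740 and 0.0555).

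The TGF-beta superfamily had 4 rises and 2 falls among 26 genes, or 15.4% and 7.69%, both under the shares over all genes, and 0 rises and 6 falls with library totals (medians -0.002 and -0.67). Mstn (myostatin), the muscle-made inhibitor of muscle growth, had 1597, 2456 and 1837 in sham and 8927, 3655 and 2624 in TAC and rose by 1.37 ± 0.44 (SE, adjusted p = 0.0456), with library totals by 1.06 (adjusted p = 0.0531). Tgfbr3 (betaglycan), a co-receptor that is also shed, Wfikkn2, a myostatin-binding inhibitor, and Bmp4 rose with TMM only. Gdf10, with 159, 98.02 and 104 in sham and 45.5, 35.2 and 18.03 in TAC, and Fstl1, a follistatin-related glycoprotein, with 808, 579 and 734 and 219.9, 251 and 310.5, fell by 1.87 and 1.44. Both falls were called in each of the 6 fits with a library left out, whereas Tgfbr3 was lost without sham 1, 2 or 3 (adjusted p = 0.0934, 0.0583 and 0.0719). Mstn was lost without sham 1, 2 or 3 (0.162, 0.0824 and 0.115) or TAC 1 (0.117), and TAC 1 was its highest library, without which its log2 fold change was 0.61. Wfikkn2 was lost in all 6 fits (0.0509 to 0.170), and Bmp4 in all but that without TAC 2 (0.0539 to 0.139). Without TAC 1 the log2 fold change of Tgfbr3 was 0.89. Hfe2 (hemojuvelin), a BMP co-receptor of skeletal muscle and liver and the most abundant of the list, did not pass. In the Wnt list 2 secreted antagonists fell, Frzb (157, 83.9 and 106 in sham, 17.4, 54.8 and 27.04 in TAC) and Sfrp4 (68.3, 46.5 and 42.6 and 10.7, 9.79 and 26.04). A pair of ligands rose, Wnt4 (162, 249.6 and 168 and 521, 552 and 555) and Wnt2b (21.9, 15.2 and 27.5 and 79.4, 48.9 and 71.1), Wnt4 with both scalings (1.49 ± 0.25 and 0.85 on the log2 scale). The other 8 of 12 genes did not pass, the abundant antagonist Dkk3 among them (median of the list -0.13, or -0.60 with library totals, which called 1 gene higher and 5 lower). With TMM 16.7% of the list thus fell and 16.7% rose, against 11.9% and 17.7% over all tested genes. Frzb was not called without sham 1 (adjusted p = 0.0736), Sfrp4 without sham 1, sham 2 or TAC 1 (0.0918, 0.0567 and 0.0506) and Wnt2b without sham 1 (0.0592), and without TAC 4 the log2 fold change of Sfrp4 was -2.45.

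Muscle-linked hormones and adipokines went both ways, with 6 rises and 5 falls among 23 genes with TMM (26.1% and 21.7%, against 17.7% and 11.9% over all tested genes). With library totals there were 1 rise and 7 falls, where 30.7% of all tested genes fell. The medians were 0.29 with TMM and -0.58 with library totals. C1qtnf3 and C1qtnf4, relatives of adiponectin, moved apart: C1qtnf3 had 40.6, 38.4 and 35.7 in sham and 2.91, 3.91 and 2.003 in TAC, and C1qtnf4 had 6.50, 13.1 and 15.1 and 35.8, 48.9 and 61.1. C1qtnf3 fell by 3.65 ± 0.43 on the log2 scale (SE, adjusted p = 0.00162). The rise of C1qtnf4 was 2.10 ± 0.42 (adjusted p = 0.00997), but 1.28 with library totals (adjusted p = 0.0574). C1qtnf3 fell to a handful of counts in TAC, so the size of its fall is less certain than its direction. Adm and Mstn, described above, also rose, and so did Ucn2 (a urocortin), Nampt and Gpihbp1, the anchor of lipoprotein lipase on capillaries, with TMM only, while Retnla, Fstl1, Il15 and Igf1 were the other falls. Retnla was lost without sham 1 (log2 fold change -1.38, adjusted p = 0.0583), Nampt without each sham library (0.0597 to 0.0710) and Ucn2 without sham 1, sham 3 or TAC 4 (0.0907 to 0.132). Lpl, lipoprotein lipase itself and the most abundant of the list per length, was at 20173, 16112 and 17682 in sham and 23296, 32066 and 10676 in TAC, with TAC 2 highest and TAC 4 lowest. Ostn (musclin), a peptide of fast fibers, had 89.4, 133 and 103 in sham and 22.3, 98.8 and 42.1 in TAC. TAC 2 lay within the sham range and Ostn did not pass (log2 fold change -0.996 ± 0.48 SE, adjusted p = 0.152). Without TAC 2 its log2 fold change was -1.75 and it was called (adjusted p = 0.0123), the 1 of the 6 fits in which it was.

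Lysosomal enzymes, which degrade proteins and lipids inside the cell and are partly secreted, had 7 rises and 1 fall among 30 with TMM (23.3% rose, against 17.7% over all tested genes). With library totals they had 1 rise and 7 falls, where 30.7% of all tested genes fell. The medians were 0.09 with TMM and -0.53 with library totals. Ctsl (cathepsin L), a protease counted among the genes of muscle atrophy, had 1544, 1384 and 1475 in sham and 6992, 3178 and 9771 in TAC. It rose by 2.18 ± 0.38 on the log2 scale (SE, adjusted p = 0.00704) and by 1.15 with library totals (adjusted p = 0.0357), the 1 lysosomal rise called with both. Naglu and Man2b1, which trim heparan sulfate and mannose chains, Ctsf, Smpdl3a and Creg1 were among those that rose with TMM only, and Ctsk fell. Ctsd (cathepsin D), the most abundant per length, had 5757, 9385 and 9359.9 in sham and 14834, 10325 and 22662 in TAC and missed the test (adjusted p = 0.0573). Naglu was not called without sham 1, sham 2 or TAC 1 (adjusted p = 0.0918, 0.0591 and 0.0514). Man2b1, Ctsf and Creg1 were called only without TAC 2 and Smpdl3a only without TAC 4 (adjusted p elsewhere 0.0601 to 0.136, 0.0666 to 0.198, 0.0952 to 0.146 and 0.0669 to 0.137). Of 16 serpins and other protease inhibitors 4 fell (25%, against 11.9% over all tested genes) and 0 rose. The median was -0.30, or -0.96 with library totals, which called 8 lower. Serpinb1a, an elastase inhibitor, had 68.3, 169.8 and 125 in sham and 29.1, 24.5 and 33.05 in TAC, and Serpinf1, which encodes the antiangiogenic factor PEDF, 667, 695 and 729 and 236, 241 and 267. Both, by 2.06 and 1.49, fell in every fit with a library left out. Pi16, a marker of a fibroblast subset, fell by 1.81 and was lost without sham 1 (adjusted p = 0.0713).

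Redox and stress enzymes had 4 rises and 2 falls among 15 with TMM (26.7% and 13.3%, against 17.7% and 11.9% over all tested genes). With library totals they had 1 rise and 4 falls, where 30.7% of all tested genes fell. The medians were 0.37 with TMM and -0.23 with library totals. Gpx3, the secreted glutathione peroxidase, had 3143, 2792 and 3041 normalized counts in sham and 9465, 10949 and 9528 in TAC. The TAC libraries were close to each other and far above the sham range, a rise of 1.74 ± 0.19 on the log2 scale (SE, adjusted p = 0.00145) and of 1.12 with library totals (adjusted p = 0.0108). Gpx3 was the most abundant per length of the 20 genes that rose with both scalings. Sod3, the superoxide dismutase of the extracellular matrix, had 249.5, 206 and 227 in sham and 82.3, 99.8 and 102 in TAC and fell by 1.26 ± 0.23 (adjusted p = 0.00813), while Sod1, its cytosolic counterpart, had 2115, 2515 and 2403 and 5056, 3429 and 4410.4 and rose with TMM only. Prdx4 fell, and Qsox2 and Calr rose with TMM only. Prdx4 was lost without each sham library (adjusted p = 0.0582 to 0.0713), and Calr was called only without TAC 2 (0.0506 to 0.135 elsewhere). Sod1 and Qsox2 each kept their call in 1 of the 6 fits with a library left out, without TAC 2 for both (adjusted p elsewhere 0.0543 to 0.0914 and 0.0873 to 0.147). Of 28 cytosolic enzymes and other abundant proteins that carry an extracellular annotation, 3 rose with TMM (10.7%, under the 17.7% over all tested genes) and 0 fell. The 3 were Car4, Gpi1 and Hmgb1, none of them called with library totals. That scaling called 12 of the 28 lower, where 30.7% of all tested genes fell. The medians were 0.04 with TMM and -0.77 with library totals. The call of Car4 was lost without sham 1, 2 or 3 (adjusted p = 0.0821, 0.0518 and 0.0719), that of Hmgb1 without any sham library or TAC 1 (0.0918, 0.0907, 0.108 and 0.0696) and that of Gpi1 without sham 1, sham 3, TAC 1 or TAC 4 (0.0918, 0.0718, 0.0632 and 0.0555).

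Outside the 23 lists stood 221 tested genes, of which 51 rose and 13 fell with TMM (23.1% and 5.88%, against 17.7% and 11.9% over all tested genes) and 5 rose and 42 fell with library totals. Glipr2, a Golgi-associated protein, was the largest of these falls by the naming rule, with 53.6, 38.4 and 64.6 in sham and 8.72, 15.7 and 5.01 in TAC. Prom1 (prominin 1), a membrane protein of stem cells that is released in vesicles, was the largest such rise with both scalings, with 15.4, 32.3 and 26.1 in sham and 154, 111 and 74.1 in TAC. Other genes of this group were picked after their values were seen. Bag6, a chaperone of proteins bound for degradation, B4galt1, a Golgi galactosyltransferase, and Copa, a subunit of the Golgi vesicle coat, rose with both scalings, by 1.52, 1.77 and 1.26 on the log2 scale with TMM. Gars and Kars, which load glycine and lysine on transfer RNA, and Aimp1, a scaffold of that enzyme complex, rose with TMM by 1.05, 0.91 and 0.66, with 0.33, 0.19 and -0.06 on library totals. Tfrc, the transferrin receptor, had 6017, 2334 and 2229 in sham and 763, 1923 and 535 in TAC and fell by 1.72, with sham 1 far above the rest (adjusted p = 0.0474). With a library left out B4galt1 and Gars were lost without sham 1 (0.0581 and 0.0713). Kars was lost without sham 1, 2 or 3 or TAC 4 (0.0879, 0.0507, 0.0655 and 0.0619), and Aimp1 and Tfrc in every such fit but that without TAC 2 (0.0514 to 0.119 and 0.0570 to 0.149).

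Some of the abundant secreted-protein genes held their level within a 2-fold band with TMM. Of the 60 genes with the highest level per length, 26 had a 95% confidence interval of the log2 fold change wholly between -1 and 1, and their log2 fold changes ran from -0.33 to 0.49 with a median of 0.10. With library totals the same 26 ran from -1.10 to -0.08, with a median of -0.62 against -0.63 for all tested genes, and 8 of them were called lower. Stable here therefore means stable relative to the other listed genes. In order of level per length the first 12 were Cst3 (cystatin C), Lgals1 (galectin 1), Hfe2, Tmsb4x (thymosin beta 4), Slc2a4 (the insulin-regulated glucose transporter GLUT4), Hnrnpa2b1, Dcn, Psap (prosaposin), B2m (beta 2 microglobulin), Itm2b, Hist1h2bc and Cpe (carboxypeptidase E). Hnrnpa2b1 had 8277, 7902 and 9147 in sham and 9869, 10780.1 and 8137 in TAC, with a log2 fold change of 0.18 and an interval of -0.26 to 0.63. B2m had 2164, 1906 and 1801 in sham and 1523, 1675 and 1513 in TAC, the tightest of the 12 among the TAC libraries, with an interval of -0.73 to 0.09. Psap had 6619, 9100.0 and 8061 and 10070.5, 11041 and 9337, with an interval of -0.10 to 0.82. For Hfe2, by contrast, TAC 1 at 5150.0 lay well under TAC 2 and TAC 4, and the interval of -0.64 to 0.83 was wider. The receptor for growth hormone, Ghr, the VEGF ligands Vegfa and Vegfb and the matrix genes Sparc, Sparcl1 and Dcn were also among the 26.

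At the very top stood Ckm and Aldoa, genes of muscle fiber metabolism. Ckm had 288265, 471788 and 431340.0 normalized counts in sham and 428576, 592091 and 604226 in TAC, overlapping groups and a log2 fold change of 0.45 ± 0.29 (SE, adjusted p = 0.278). Aldoa, the muscle aldolase of glycolysis, had 72724, 126462 and 101686 and 138976, 157275 and 192447, which did not overlap, but it missed the test (adjusted p = 0.0889) and stood at -0.05 with library totals. Serpinb6a was likewise above the sham range without passing (4816, 6988 and 6931 and 10348, 7861 and 8605). Together Ckm and Aldoa held 56.0% of all listed normalized counts, and the 60 genes with the most counts held 84.3%.

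**Figure D4:**
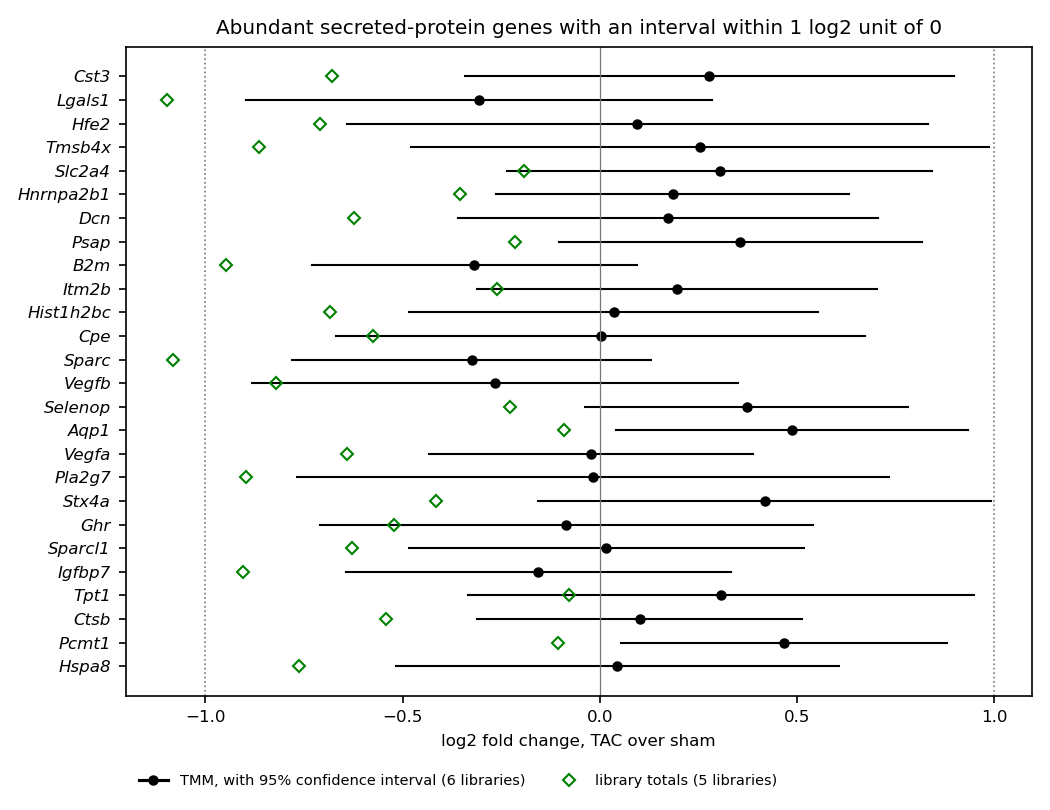
Log2 fold change (TAC over sham) of the 26 abundant genes whose 95% confidence interval lies between -1 and 1, in order of level per length from the top; black points with bars are TMM estimates with their interval, and green diamonds are library-total estimates from 5 libraries. Every diamond lies below its black point and below 0.

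The TAC libraries differed from one another more than the sham libraries did. The root mean square log2 difference over 586 genes was 0.49 to 0.58 between sham libraries, 0.84 to 0.90 between TAC libraries and 0.89 to 1.29 between a sham and a TAC library. On the first principal component, which held 61.7% of the variance, the sham libraries lay at -12.9, -9.70 and -12.2 and TAC 1, TAC 2 and TAC 4 at 16.5, 5.81 and 12.5. TAC 2 was thus the TAC library nearest to sham. The second component (17.1%) set TAC 4 at 11.4 apart from TAC 1 at -4.63 and TAC 2 at -8.45. Among 454 genes with a mean of at least 50 normalized counts in both groups, the SD of log2 counts was larger in TAC in 336, or 74.0%, with a median of 0.36 against 0.21 in sham. The range over the 3 libraries was over 2 log2 units in 21 genes in TAC and in 4 in sham.

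Of the 104 rises TAC 1 held the highest value in 58 and TAC 2 the lowest of the 3 in 57. Of the 70 falls TAC 1 held the lowest value in 33, and the highest was in TAC 2 in 28 and in TAC 4 in 25. TAC 1 was thus most often farthest from sham in both sets. TAC 2 was most often nearest among the rises, but among the falls it was close to TAC 4. Among the 70 falls the median log2 distance from the sham mean was -1.56 in TAC 1, -1.37 in TAC 2 and -1.38 in TAC 4. The 20 rises called with both scalings did not share an order: TAC 1 was highest in 11, TAC 2 in 5 (Lcn2, Adm, Sema4c, Sema6b and Gpx3) and TAC 4 in 4 (Ctsl, Aebp1, Bag6 and Wnt4).

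**Figure D5:**
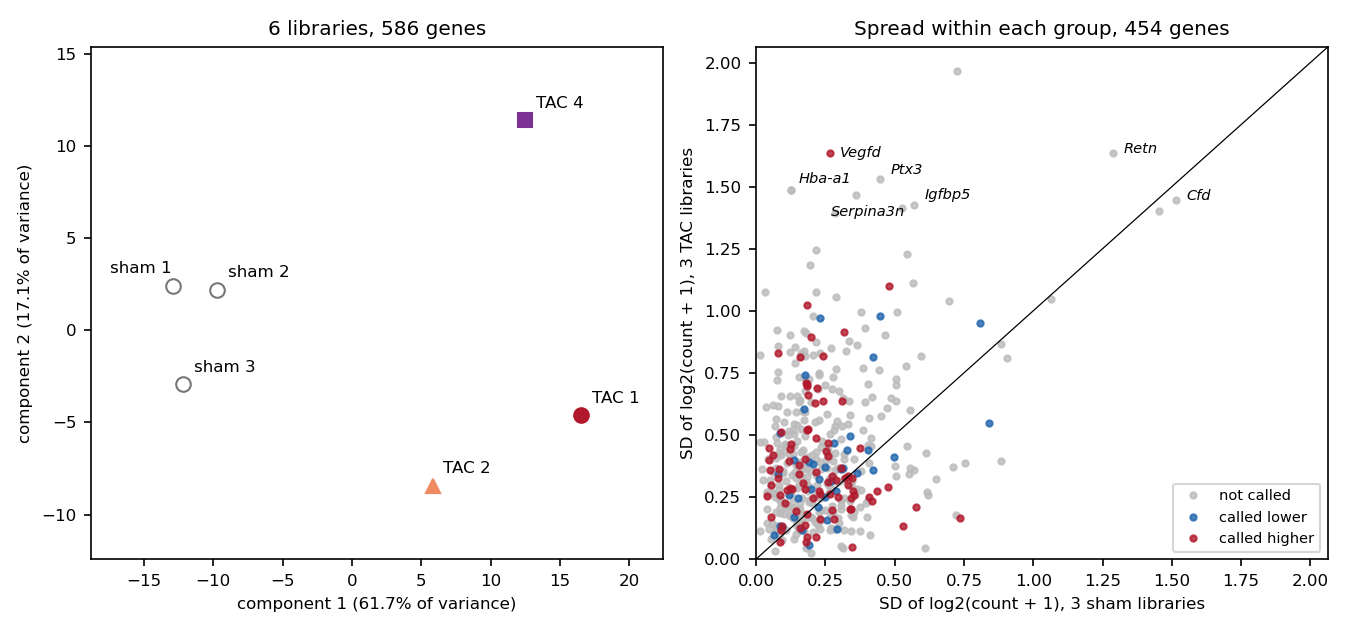
Left, the 6 libraries on the first 2 principal components of log2 normalized counts over 586 genes. Right, the SD of log2(count + 1) over the 3 TAC libraries against that over the 3 sham libraries for 454 genes with a mean of at least 50 in both groups, colored by call, with the line of equality; 336 genes lie above the line.

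The genes with the largest range over the TAC libraries followed several patterns. Ptx3 (pentraxin 3), a soluble pattern receptor, had 147, 117 and 217 in sham and 22.3, 167 and 31.05 in TAC. In it, as in Igfbp5 and Ostn, TAC 2 was near the sham values and TAC 1 and TAC 4 were far below them. Retn (resistin) and Cfd, products of adipocytes, were high in TAC 1 and TAC 4 and low in TAC 2 (288, 75.4 and 727 for Retn), but they also varied in sham (319, 203 and 56.4). Adipoq (adiponectin), another adipocyte gene, had 962, 429 and 129 in sham and 523, 114 and 708 in TAC, with the same order of the TAC libraries. Of 5 adipocyte markers 0 passed in either direction. Serpina3n, an acute-phase protease inhibitor, was high in TAC 1 alone (73.2, 79.8 and 49.5 in sham, 193, 24.5 and 61.1 in TAC). The alpha globin genes Hba-a1 and Hba-a2 carry equal counts in all 6 libraries, so they cannot be told apart, and both were low in TAC 4 alone (1039, 1248 and 191 in TAC against 849, 767 and 912 in sham). Alb (albumin), picked after its values were seen, had 43.1, 43.5 and 4.12 in sham but 3.87, 0.979 and 1261 in TAC, so that TAC 4 by itself gave a log2 fold change of 3.76 (adjusted p = 0.171) and the fit with library totals, which lacks TAC 4, gave -4.26 (adjusted p = 0.0257). Trf (transferrin), the other plasma protein gene of its list, was at 273, 131 and 432 in TAC and 279, 232 and 169 in sham.

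At the other end, some genes were nearly equal in the 3 TAC libraries. Timp2, an inhibitor of metalloproteinases, had 873, 851 and 843 in TAC, and Serping1, the C1 esterase inhibitor, 843, 824 and 807. Both lay below all 3 sham libraries (964, 1242 and 1202 and 915, 991 and 914) without passing the test (adjusted p = 0.146 and 0.468), and both were called lower with library totals (0.0108 and 0.0264). Hdgf and Nucb2 were equally tight above the sham range, at 111, 118 and 116 in TAC for Nucb2, and did not pass. Saal1 and Pla1a overlapped the sham values (73.6, 78.3 and 75.1 and 63.9, 67.5 and 63.1 in TAC). Wnt4 and Col5a1 combined a tight TAC group with a call, Wnt4 above sham and Col5a1 below it (174, 154 and 201 in sham, 84.3, 87.1 and 91.1 in TAC).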

How the data were processed

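RNA of quadriceps from 3 sham and 3 TAC mice was sequenced. Per the study's methods and processing notes, the authors trimmed reads with Trim Galore, aligned them to mm10 with STAR and counted them with Rsubread. They deposited raw counts of 1 RefSeq transcript per gene for 587 genes with an extracellular annotation, beside RPKM values (reads scaled by transcript length and library total) and their own log2 fold changes, F scores and p-values, which were not used. In 111 genes the counts belong to another transcript than those statistics. RPKM served to recover library totals for 5 libraries. Unused were 10 single-library columns, 1 of them the RPKM of TAC 4, so no library total was recovered for TAC 4. The sham counts in the table shared with heart, equal in all 3 libraries, gave the check of tissue.

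The test took the 586 genes that had over 5 counts in 2 or more libraries, using edgeR 4.0.16 (quasi-likelihood, TMM over the listed genes, no covariate) in R 4.3.3, with Benjamini-Hochberg adjustment over all 586 and a threshold of 0.05. Only Habp2 was not tested. The fit was tested on simulated data. No replicate pair within a group agreed within counting noise, and by the study's account the libraries are biological replicates, so p-values measure the spread between these libraries. Levels per length are normalized counts per kilobase. Positions and overlaps come from GENCODE vM21 (GRCm38), and promoters from RefSeq.

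Members, gene lists and tests were chosen with earlier results of these data known. Genes are named by this rule: the 12 largest falls and 12 largest rises (rises called with both scalings) with a mean of at least 30 normalized counts and no overlap between groups; in each list up to 3 called genes with the largest change and the most abundant gene; the 12 most abundant and 12 most abundant stable genes; the 8 with the largest and the 8 with the smallest range over TAC libraries at a mean of at least 50 in both groups; and Ostn and Igfbp5. Some genes that it names are not reported here. Alternatives were DESeq2 1.42.0, other scalings, count filters, limma 3.58.1 on log2(RPKM + 1) and log2(RPKM + 0.1), a replicate block and leaving out each library. Protein sequences were not analysed here.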

Additional observations from a re-analysis of the deposited data

How the results depend on the processing

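With TMM edgeR called 104 genes higher and 70 lower in TAC, and 20 and 70 with both scalings. All 70 falls were called again with library totals, listed-gene sums and both limma settings, which lower nearly all genes together and so cannot test the falls, and 68 with DESeq2 (109 higher and 80 lower in all). Rises and falls were 20 and 180 with library totals, 27 and 139 with sums of the listed genes and no TMM, 16 and 192 with limma on log2(RPKM + 1) and 16 and 198 on log2(RPKM + 0.1). Each of these scalings lacks the TMM factors, which were 0.79 to 0.93 in TAC and 1.04 to 1.41 in sham. With a fold change of at least 2 and an unadjusted p under 0.05, 67 rose and 74 fell. With a library left out the rises ranged from 25 to 113 and the falls from 35 to 102 (7 to 36 and 33 to 102 with both scalings), and 30 of the 70 falls and 24 of the 104 rises were called in all 6 such fits. Cst3, Tmsb4x and Hist1h2bc, not called with TMM, were called lower with library totals (-0.68, -0.86 and -0.68) and with limma (-0.68, -0.84 and -0.67 at a pseudocount of 1, and -0.68, -0.85 and -0.69 at 0.1).

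For the paired view, libraries numbered 1 and 2 were fitted with a replicate block. It called 56 rises and 62 falls (3 and 43 with both scalings), against 49 and 39 (11 and 39) for the same 4 libraries without the block. The deviations of same-numbered libraries correlated at r = 0.061 across genes, and the sham and TAC libraries with a number are different mice, so the samples share a number only.

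With 3 libraries a group, and a TAC group wider than the sham group, small changes could not be detected, and genes of a few counts have uncertain fold changes. Intervals cover the spread between these libraries. Protein sequence features, listed among the planned results, were not run.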
